A study of Mus musculus with 12 samples.

Results

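Of 19938 genes measured in dividing donor CD4+ T cells, 8 that encode catenins, claudin-like and epithelial membrane proteins, or connexins were picked. The 8, which are not all measured members of these families, are Ctnnal1, Ctnna1, Ctnnb1, Cldnd1, Emp1, Emp3, Gjb2 and Gja1. They were chosen by measured values of these arrays, namely the difference between Cl-BBQ and vehicle, because Ctnnal1 and Gjb2 were lower and Cldnd1 and Emp1 higher with Cl-BBQ than with vehicle. Ctnna1, Ctnnb1, Emp3 and Gja1 were set beside those 4 as other catenin, epithelial membrane protein and connexin genes. Each gene had 1 probe set with a single symbol, and all 8 are described here. The values of Cl-BBQ against vehicle are therefore given as a description, with no test. The smallest log2 difference among the 4 that decided the choice was −0.57, in Gjb2, and the largest among the other 4 was 0.19, in Emp3.

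The cells were donor T cells in a graft-versus-host response. Spleen cells of C57Bl/6 mice, stained with the division dye CFSE, were injected into B6D2F1 hosts, and donor CD4+ cells that had divided at least 2 times were sorted on day 2 (48 hr) from spleen and lymph node. Hosts of the first group received TCDD, 15 µg/kg, once on day 0; hosts of the second received Cl-BBQ, 2 mg/kg, on days 0 and 1; vehicle hosts were dosed on days 0 and 1. All injections were intraperitoneal, all mice were 10 to 12 weeks old, and each group had 4 arrays, 1 for each biological replicate. TCDD, a persistent dioxin, and Cl-BBQ both bind the aryl hydrocarbon receptor (AhR), which acts as a ligand-dependent transcription factor. Both were given to hosts that carried the transferred cells, and they differed in dose and schedule.

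Catenins link the tails of cadherins to actin at adherens junctions, and β-catenin (Ctnnb1) also enters the nucleus as partner of TCF/LEF factors, a role in which it is known in T cells. Claudins and the PMP22/EMP proteins are four-pass membrane proteins, and claudins form the strands of tight junctions in epithelial sheets. Connexins form channels between touching cells and hemichannels in the membrane of single cells; Gja1 is the connexin best known in T cells. T cells form none of the lasting junctions of epithelia.

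Values are log2 intensities, so a difference of 1 is a doubling of intensity. The level of 1 probe set says nothing of its level beside another, and only the same gene is compared between groups. Array medians ran from 7.11 to 7.24. The array of Cl-BBQ replicate 3 stood apart in Cyp1b1, a cytochrome P450 and known AhR target. It read 5.93 there, below every vehicle array (6.25 to 6.57), whereas the other Cl-BBQ arrays read 7.89 to 8.24 and the TCDD arrays 9.67 to 9.92. For the 8 genes the differences between Cl-BBQ and vehicle are given with and without it. Other results include it unless stated. The 12 measured CD4 T cell markers averaged 12.10 to 12.25 on the TCDD arrays. They averaged 12.05 to 12.30 on the Cl-BBQ arrays and 12.11 to 12.21 on the vehicle arrays. None was called in any comparison by limma. At an unadjusted p under 0.05 there were 2 with TCDD, 1 with Cl-BBQ and 0 between the compounds. The shares of all genes were 8.69%, 7.91% and 2.99%.

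The first comparison asked how these genes stood in cells from TCDD-dosed hosts. Cldnd1 and Emp1 rose 2.64-fold and 2.60-fold, Ctnnal1 fell to 7.58 ± 0.06, against 8.49 ± 0.19 in vehicle cells, and Gjb2 fell to 8.59 ± 0.13, against 9.25 ± 0.10 (SD, n = 4 each). Thus 4 of the 8 genes were called with TCDD (limma, adjusted p under 0.05 over all genes), 2 higher and 2 lower, where 1.24% of all genes were called, 0.873% higher and 0.366% lower. The TCDD and vehicle arrays did not overlap in 5 of the 8, which held for 5.8% of all genes, and 5 had an unadjusted p under 0.05, against 8.69% of all genes. The median log2 difference was 0.13 over the 8 genes and 0.00 over all genes. The vehicle arrays are the ones that also served to choose Ctnnal1, Gjb2, Cldnd1 and Emp1. Their calls with TCDD are therefore not independent support for a difference or its direction. The counts above rest largely on these 4 genes, and nothing is read from them beside the shares of all genes. In sorted bulk cells, fewer cells that express a gene and less RNA per cell cannot be told apart.

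**Figure D1:**
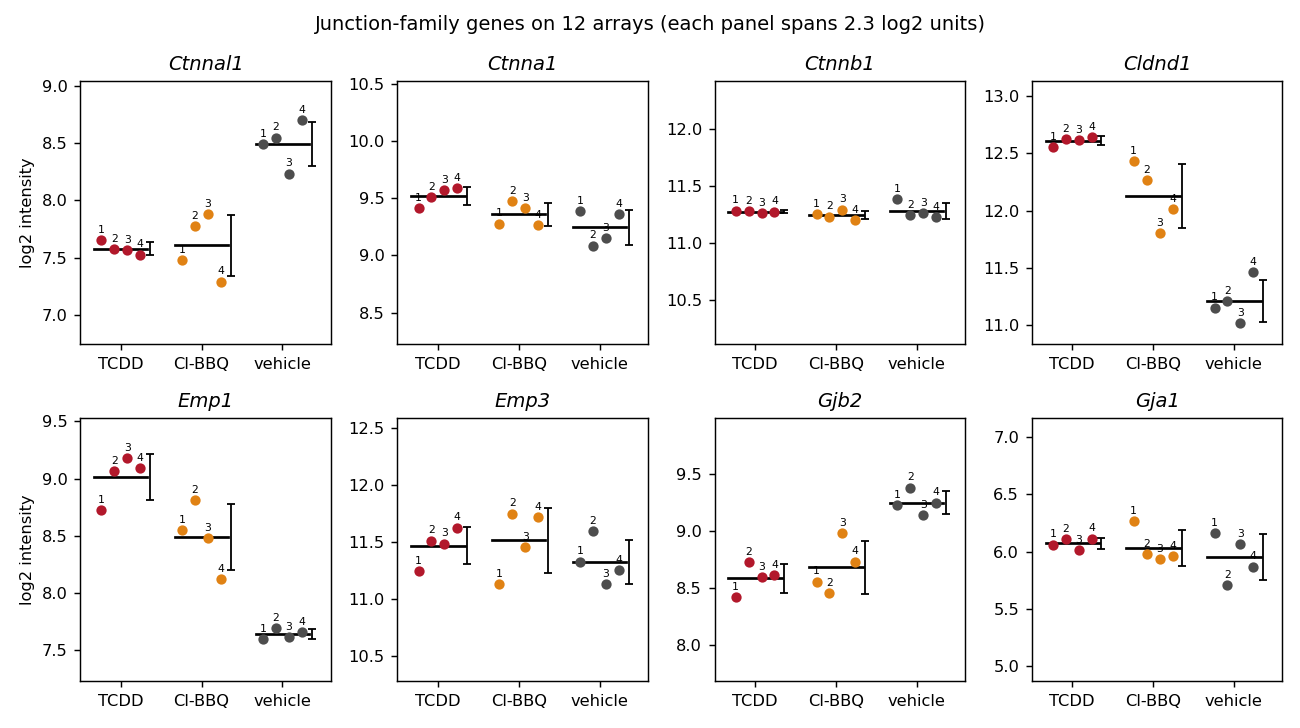
Log2 intensity (vertical axis) of each of the 8 genes on the TCDD, Cl-BBQ and vehicle arrays, left to right; points are arrays labelled with the replicate number, the horizontal bar is the mean of 4 and the whisker its SD. Cldnd1 and Emp1 are high and Ctnnal1 and Gjb2 low on all TCDD and Cl-BBQ arrays, while the arrays of the 3 groups overlap in Ctnnb1, Emp3 and Gja1.

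Ctnnal1 encodes α-catulin, a relative of the α-catenins and of vinculin. Its TCDD arrays read 7.66, 7.57, 7.56 and 7.53, its Cl-BBQ arrays 7.48, 7.77, 7.88 and 7.29, and its vehicle arrays 8.49, 8.55, 8.23 and 8.70. Every treated array lay below every vehicle array, by at least 0.58 with TCDD and 0.35 with Cl-BBQ. The TCDD arrays lay within 0.13 of each other and the Cl-BBQ arrays within 0.59, and the lowest and the highest treated values were both Cl-BBQ values. With TCDD Ctnnal1 fell by 0.91 on the log2 scale (interval −1.16 to −0.66; limma adjusted p = 0.000537), a 1.89-fold decrease. With Cl-BBQ it averaged 7.61 ± 0.27, 1.85-fold below vehicle, and the log2 difference was −0.89 with all arrays and −0.98 without Cl-BBQ replicate 3.

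The other catenins were not called with TCDD. Ctnna1, the α-catenin that ties β-catenin to actin, read 9.41, 9.51, 9.57 and 9.59 with TCDD, 9.28, 9.47, 9.41 and 9.27 with Cl-BBQ, and 9.39, 9.09, 9.15 and 9.36 with vehicle. All TCDD arrays lay above all vehicle arrays, but by 0.02 at the nearest pair, and the log2 difference of 0.27 (interval 0.10 to 0.45) had a limma adjusted p of 0.189; after quantile normalization it was called (adjusted p = 0.028), the only one of 23 alternatives in which it was. Ctnnal1 and Ctnna1 thus lay on opposite sides of vehicle, with only the first called.

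Ctnnb1 varied least. Its arrays ran from 11.26 to 11.28 with TCDD, from 11.20 to 11.29 with Cl-BBQ and from 11.23 to 11.38 with vehicle, and the groups overlapped. The log2 difference between TCDD and vehicle was −0.01, with an interval of −0.10 to 0.09 (limma adjusted p = 0.992). With Cl-BBQ it stood at 11.24 ± 0.04, a log2 difference of −0.03 from vehicle.

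Cldnd1, claudin domain-containing 1, is a four-pass membrane protein of the claudin superfamily. Its TCDD arrays read 12.55, 12.63, 12.62 and 12.64, its Cl-BBQ arrays 12.43, 12.26, 11.80 and 12.01, and its vehicle arrays 11.15, 11.21, 11.01 and 11.46. The 3 groups did not overlap and lay in the order TCDD, Cl-BBQ, vehicle from high to low, with gaps between nearest arrays of 0.13 between TCDD and Cl-BBQ and 0.34 between Cl-BBQ and vehicle. Such full separation in that order or its reverse held for 0.145% of all genes, a share from which nothing is read, since the choice of the gene used part of it. With TCDD Cldnd1 rose by 1.40 on the log2 scale (interval 1.17 to 1.63; limma adjusted p = 1.66e-05). With Cl-BBQ it was 1.89-fold above vehicle, a log2 difference of 0.92 with all arrays and 1.03 without replicate 3, the lowest of the 4 Cl-BBQ arrays here as in Cyp1b1.

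Emp1 and Emp3 encode epithelial membrane proteins of the PMP22 family. Emp1 read 8.73, 9.07, 9.18 and 9.09 with TCDD, 8.55, 8.82, 8.48 and 8.12 with Cl-BBQ, and 7.60, 7.69, 7.62 and 7.66 with vehicle. The vehicle arrays were tightly grouped, within 0.10, and every treated array lay above them; the TCDD and Cl-BBQ arrays overlapped at 1 pair, TCDD replicate 1 and Cl-BBQ replicate 2. The log2 difference between TCDD and vehicle was 1.38 (interval 1.12 to 1.64; limma adjusted p = 3.6e-05). With Cl-BBQ Emp1 was 1.80-fold above vehicle, a log2 difference of 0.85 both with and without replicate 3.

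Emp3 did not follow Emp1. It ran from 11.25 to 11.63 with TCDD, from 11.13 to 11.75 with Cl-BBQ and from 11.13 to 11.59 with vehicle, so that all groups overlapped. The log2 difference between TCDD and vehicle was 0.14 (interval −0.12 to 0.41; limma adjusted p = 0.852), and Cl-BBQ lay 0.19 above vehicle on the log2 scale.

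The 2 connexin genes also differed. Gjb2, a connexin of the beta group known from skin and the inner ear, read 8.42, 8.73, 8.59 and 8.62 with TCDD, 8.56, 8.46, 8.98 and 8.73 with Cl-BBQ, and 9.23, 9.38, 9.14 and 9.25 with vehicle. All treated arrays lay below all vehicle arrays, and Cl-BBQ replicate 3 came nearest to them, by 0.16. With TCDD Gjb2 fell by 0.66 on the log2 scale (interval −0.88 to −0.44; limma adjusted p = 0.00233), a 1.58-fold decrease. With Cl-BBQ it was 1.48-fold below vehicle, a log2 difference of −0.57 with all arrays and −0.67 without replicate 3.

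Gja1 was dim, with a mean over all arrays below the 25th percentile of gene means, and it ran from 6.01 to 6.11 with TCDD, from 5.93 to 6.27 with Cl-BBQ and from 5.71 to 6.16 with vehicle. The groups overlapped, and the log2 difference between TCDD and vehicle was 0.12 (interval −0.08 to 0.32; limma adjusted p = 0.821). Cl-BBQ lay 0.08 above vehicle.

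In Cl-BBQ against vehicle, 4 of the 8 genes were past the same threshold, as their choice required, 2 higher (0.145% of all genes) and 2 lower (0.0502%), where 0.196% of all genes were past it. The arrays did not overlap in these 4, against 3.85% of all genes, and 7.91% of all genes had an unadjusted p under 0.05. Nothing is read from these shares. The other genes differed from vehicle by 0.11 (Ctnna1), −0.03 (Ctnnb1), 0.19 (Emp3) and 0.08 (Gja1) on the log2 scale. Without Cl-BBQ replicate 3 these differences were 0.09, −0.05, 0.21 and 0.12.

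**Figure D2:**
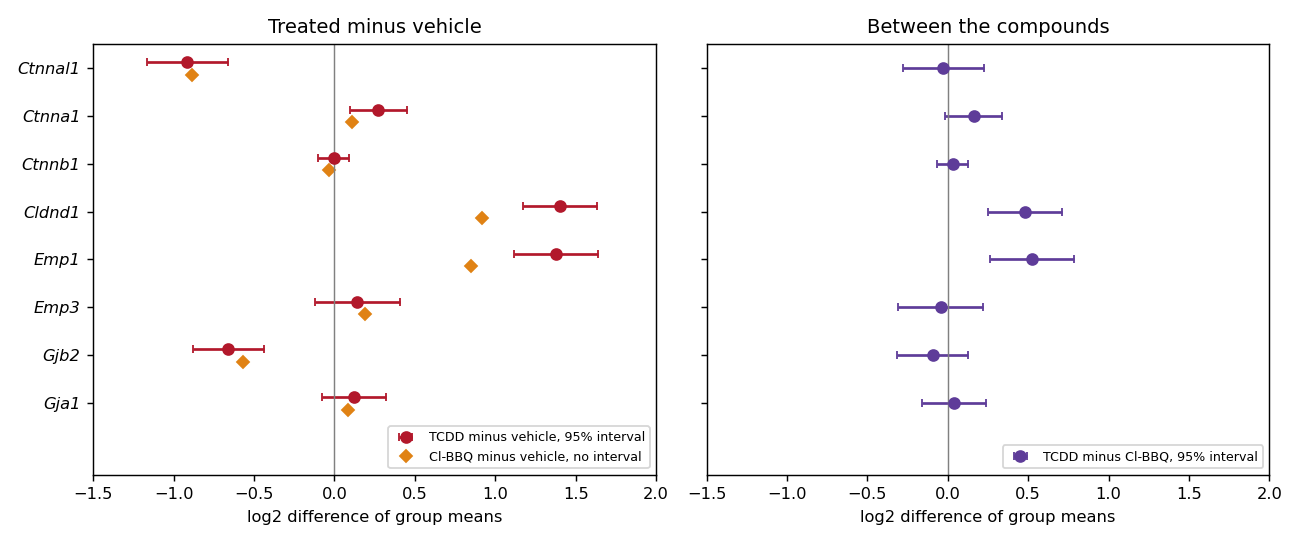
Log2 differences of group means for the 8 genes: TCDD minus vehicle (circles) and Cl-BBQ minus vehicle (diamonds) on the left, TCDD minus Cl-BBQ on the right; bars are 95% intervals of the moderated fit, and the contrast that chose the genes has none. Ctnnal1 and Gjb2 lie at like values for both compounds, while Cldnd1 and Emp1 lie further from vehicle with TCDD, by 0.48 and 0.52. Neither of these differences between the compounds was called in the main fit.

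The direct difference between the compounds, each at its own dose and schedule, was tested in the same fit, and it shares its Cl-BBQ arrays with the contrast that chose the genes. None of the 8 genes was called by limma, where 0.015% of all genes, 3 in number, were; with the replicate number as a block 5 genes were called, and again none of the 8. At an unadjusted p under 0.05 there were 2, Cldnd1 and Emp1, against 2.99% of all genes. Cldnd1 was 0.48 higher with TCDD on the log2 scale (interval 0.25 to 0.71; adjusted p = 0.482, and 0.134 with the replicate block), and all 4 TCDD arrays lay above all Cl-BBQ arrays; the arrays did not overlap, in either direction, in 2.04% of all genes. This call depended on the setting: Cldnd1 passed when arrays were weighted, with an adjusted p of 0.0361, and when Cl-BBQ replicate 1 was left out, with 0.0467, and the difference was 0.37 without Cl-BBQ replicate 3; its adjusted p ranged from 0.0361 to 1. Emp1 was 0.52 higher with TCDD (interval 0.26 to 0.78; adjusted p = 0.504, and 0.273 with the block), with 3 of 4 TCDD arrays above all Cl-BBQ arrays.

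For the genes that were low with both compounds the interval of the difference included 0. It was −0.28 to 0.22 for Ctnnal1 (difference −0.03) and −0.31 to 0.13 for Gjb2 (difference −0.09), and leaving out Cl-BBQ replicate 3 turned both signs, to 0.06 and 0.01. The remaining differences were 0.16 for Ctnna1 (interval −0.02 to 0.34), 0.03 for Ctnnb1 (interval −0.07 to 0.13), −0.05 for Emp3 (interval −0.31 to 0.22) and 0.04 for Gja1 (interval −0.16 to 0.24). Intervals are those of single genes, without correction for their number.

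The promoters of the 4 genes that differed are shown because both compounds bind AhR, whose core binding motif is GCGTG. Sequences are from the RefSeq promoter table (GRCm38.p6), which held 7 of the 8 genes; bases are counted back from the annotated start (−1 is the base before it), lower case is sequence, and capitals mark GCGTG on either strand. Only bases outside the annotated gene are printed. Emp1 is the exception: all 250 bases before each of its 2 starts lie within the gene, and 30 bases about its match are printed. The start of Ctnnal1 also lies within the gene, and 86 of the 250 bases before it lie outside.
Ctnnal1 (chr4:56865376-56865461, minus strand, bases −250 to −165): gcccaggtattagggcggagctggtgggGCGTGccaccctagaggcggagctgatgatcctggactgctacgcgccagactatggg
Gjb2 (chr14:57104703-57104952, minus strand, bases −250 to −1): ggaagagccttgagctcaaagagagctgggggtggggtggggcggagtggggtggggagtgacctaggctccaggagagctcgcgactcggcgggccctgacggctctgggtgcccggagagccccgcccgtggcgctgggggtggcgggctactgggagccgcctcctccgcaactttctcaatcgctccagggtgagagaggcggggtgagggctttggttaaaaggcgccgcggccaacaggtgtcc
Cldnd1 (chr16:58727660-58727909, plus strand, bases −250 to −1): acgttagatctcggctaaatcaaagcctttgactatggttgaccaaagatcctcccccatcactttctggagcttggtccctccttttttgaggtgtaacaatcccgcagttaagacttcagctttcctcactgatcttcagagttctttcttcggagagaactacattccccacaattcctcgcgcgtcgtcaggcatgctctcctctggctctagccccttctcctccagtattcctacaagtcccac
Emp1, second start (chr6:135367435-135367464, plus strand, bases −58 to −29): tatgcttgcctaGCGTGttcgtggctctgc

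Ctnnal1 held 1 match to GCGTG, whose first base is −222, and Emp1 held 1 before its second start, at −46, and 0 before its first. Both Emp1 starts lie within the gene, so the bases before the gene's outer end were not searched. Gjb2 and Cldnd1, whose 250 bases are shown in full, held 0. Of the genes that were not called with TCDD, Ctnnb1 had 1 match before each of its 2 starts and Gja1 had 1, at −97, while Emp3 had 0. The motif stood in 28.2% of 32851 promoters of 250 bases. That share is per promoter, while Ctnnb1, Emp1 and Emp3 had 2 promoters each. Genes with and without a match occurred both among the 4 that differed and among the rest, leaving out Ctnna1, which had no promoter entry. Whether the motif bears on the differences was not tested. The longer form TNGCGTG, which contains GCGTG, occurred only at the Emp1 match among these genes and in 4.1% of promoters. The AP-1 motif TGANTCA occurred at 2 places before the first start of Emp1 and at 1 in Gja1, and in 6.75% of promoters. Both strands were searched, and a match is a run of letters, not a measured binding site.

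Lists of 5 families were drawn up for this comparison, and the counts that follow leave out the 8 genes already described. They stand beside shares over all genes of 1.24% called with TCDD, 0.196% with Cl-BBQ and 0.015% between the compounds, and of 8.69%, 7.91% and 2.99% at an unadjusted p under 0.05. In the adherens junction and cadherin list 0 of 19 genes were called by limma with TCDD, 0 with Cl-BBQ and 0 between the compounds (3, 2 and 1 at an unadjusted p under 0.05), with a median log2 difference of 0.08 for TCDD and 0.05 for Cl-BBQ, against 0.00 and 0.01 over all genes. The largest in this list was Afdn, afadin, which links nectins to actin: it averaged 8.14 ± 0.04 with TCDD, 8.06 ± 0.17 with Cl-BBQ and 7.82 ± 0.06 with vehicle. Its log2 difference between TCDD and vehicle of 0.33 missed the threshold (limma adjusted p = 0.0717) and passed it in 5 of 23 alternatives, among them those that left out Cl-BBQ replicate 1, with an adjusted p of 0.0439, or Cl-BBQ replicate 4, with 0.0282. Vcl, the actin linker vinculin, had a difference of 0.18 (adjusted p = 0.483).

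Among 27 genes of β-catenin regulation and TCF/LEF factors, limma called 1 with TCDD, as higher, and left 26 uncalled. At an unadjusted p under 0.05 there were 6, of which 3 were higher and 3 lower, against 8.69% of all genes. The log2 differences ran from −0.30 to 0.57, with a median of 0.03. The gene was Axin2, a scaffold of the complex that degrades β-catenin and itself a known target of β-catenin and TCF/LEF. Axin2 read 9.33, 9.54, 9.34 and 9.55 with TCDD, 9.08, 9.43, 9.06 and 9.33 with Cl-BBQ, and 8.89, 8.94, 8.66 and 9.01 with vehicle. The treated arrays all lay above the vehicle arrays, and Axin2 rose 1.49-fold with TCDD (log2 difference 0.57, interval 0.36 to 0.78; limma adjusted p = 0.00641), a call kept in 23 of 23 alternatives. With Cl-BBQ it was not called, nor was any of the 27 (3 at an unadjusted p under 0.05), and its difference between the compounds was not called either.

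In the claudin and tight junction list 0 of 33 genes were called by limma in any of the 3 comparisons (3 with TCDD, 2 with Cl-BBQ and 2 between the compounds at an unadjusted p under 0.05). Their log2 differences between TCDD and vehicle ran from −0.24 to 0.22, with a median of 0.03. That of Cldnd1 was 1.40, but Cldnd1 was chosen for its distance from these vehicle arrays, so nothing is read from the contrast. F11r, the junctional adhesion molecule JAM-A, averaged 6.41 ± 0.13 with TCDD, 6.13 ± 0.06 with Cl-BBQ and 6.25 ± 0.10 with vehicle, a difference of 0.27 between the compounds that was not called (adjusted p = 0.948). Like Gja1, F11r had a mean over all arrays below the 25th percentile of gene means. Cldn22, a claudin, was 0.22 above vehicle with TCDD (adjusted p = 0.175).

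In the PMP22/EMP family 0 of 6 other genes were called by limma (2 with TCDD, 1 with Cl-BBQ and 0 between the compounds at an unadjusted p under 0.05). Nkg7, a four-pass protein of cytotoxic granules, averaged 10.65 ± 0.30 with TCDD, 10.64 ± 0.22 with Cl-BBQ and 10.11 ± 0.53 with vehicle. The vehicle arrays spread from 9.53 to 10.78, and the log2 difference with TCDD of 0.53 was not called (interval 0.10 to 0.97; adjusted p = 0.413). Perp, a desmosome protein, had a difference of 0.17 (adjusted p = 0.52).

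In the connexin and pannexin list 0 of 17 other genes were called by limma (1 with TCDD, 0 with Cl-BBQ and 0 between the compounds at an unadjusted p under 0.05). Their log2 differences between TCDD and vehicle ran from −0.08 to 0.17. That of Gjb2 was −0.66, but Gjb2 was chosen for its distance from these vehicle arrays, so nothing is read from the contrast. Gjc3, a connexin, had a difference of 0.17 with TCDD (adjusted p = 0.53), and Panx2, a pannexin, was 0.15 above vehicle with Cl-BBQ (adjusted p = 0.659). Like Gja1, Gjc3 had a mean over all arrays below the 25th percentile of gene means.

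**Figure D3:**
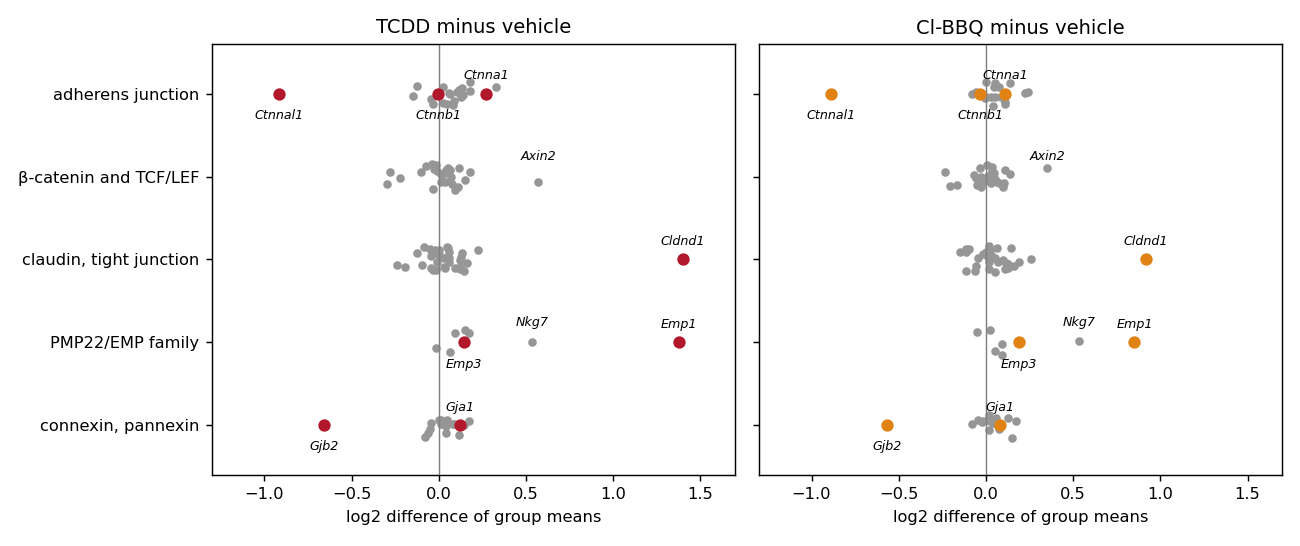
Log2 differences of group means (horizontal axis) for the genes of 5 families, TCDD minus vehicle on the left and Cl-BBQ minus vehicle on the right; large coloured points are the 8 genes of the report and grey points the other measured members, spread vertically for legibility. Ctnnal1, Cldnd1, Emp1 and Gjb2 lie outside the range of the other genes of their lists, as they were chosen for, and Axin2 is the grey gene furthest from 0 with TCDD.

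Some markers of cells that the sort should remove differed between the groups. Beside the marker counts stand shares over all genes of 1.24% called with TCDD and 0.196% with Cl-BBQ. At an unadjusted p under 0.05 (limma) these shares were 8.69% and 7.91%. Of 9 B cell markers, where 1.24% of all genes were called with TCDD, Cd22 and Bank1 were lower with TCDD (log2 difference −0.95, adjusted p = 0.00364, and −0.48, adjusted p = 0.0392), and the list averaged 6.50 to 6.64 on TCDD arrays, 6.56 to 6.62 on Cl-BBQ arrays and 6.62 to 6.81 on vehicle arrays. The median log2 difference of the B cell list was 0.00 with TCDD, its members ran from −0.95 to 0.23, and 1 was higher and 2 were lower at an unadjusted p under 0.05. With Cl-BBQ the median was −0.01, none was called by limma, and 0 were higher and 2 lower at an unadjusted p under 0.05. Of 15 myeloid and dendritic markers, Cd86 was lower with both compounds (−0.80, adjusted p = 0.00468 with TCDD, and −0.72, adjusted p = 0.0421 with Cl-BBQ) and Cd74 with TCDD (−0.43, adjusted p = 0.0297). The median of this list was −0.02 with TCDD and 0.04 with Cl-BBQ, against 0.00 and 0.01 over all genes. At an unadjusted p under 0.05, 1 was higher and 3 were lower with TCDD, and 2 were higher and 2 lower with Cl-BBQ. That list averaged 6.64 to 6.74 on TCDD arrays, 6.7071 to 6.7578 on Cl-BBQ arrays and 6.7605 to 6.8156 on vehicle arrays. The list's mean thus lay lower on the treated arrays than on the vehicle arrays, though narrowly for Cl-BBQ. Its median gene lay near that of all genes.

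Of 20 epithelial, endothelial and stromal markers Epcam was 0.41 higher with TCDD (adjusted p = 0.0415). The list's median was 0.07 with TCDD and 0.04 with Cl-BBQ, with 1 higher and 0 lower at an unadjusted p under 0.05 for each, and the list averaged 6.95 to 7.09 on TCDD arrays, 6.94 to 7.05 on Cl-BBQ arrays and 6.88 to 7.00 on vehicle arrays. In the NK list of 7, the granule protease gene Gzma was higher with TCDD (2.41, adjusted p = 3.6e-05) and with Cl-BBQ (1.53, adjusted p = 0.0135), and Eomes, a T-box factor, was lower with TCDD (−0.64, adjusted p = 0.018); activated T cells express both. The NK list's median was 0.07 with TCDD and −0.05 with Cl-BBQ, with 2 higher and 1 lower at an unadjusted p under 0.05 for each. The 2 CD8 and the 3 erythroid markers had 0 calls by limma in the 3 comparisons, with 1 erythroid marker at an unadjusted p under 0.05 with Cl-BBQ. RMA values have no true 0, so absence of a marker could not be read from them. The part of other cells in the 8 genes' values was not tested.

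The genes most like each of the 4 in pattern over the 12 arrays were found by Pearson correlation, which here mostly follows the difference between treated and vehicle arrays. All arrays share 1 normalization, and the correlation of deviations from group means is given beside it. The ranking over the 12 arrays already includes these deviations, so the second value is raised by the choice and is no separate check. Ctnnal1 was most like Itgb1, the integrin β1 chain (r = 0.987, and 0.913 for the deviations). Itgb1 read 9.85, 9.84, 9.74 and 9.85 with TCDD, 9.89, 9.92, 10.10 and 9.59 with Cl-BBQ, and 10.52, 10.64, 10.34 and 10.67 with vehicle. Within the Cl-BBQ arrays replicate 3 was highest and replicate 4 lowest for both genes, and within the vehicle arrays replicate 4 was highest and replicate 3 lowest for both. Next came Tarsl2, a tRNA synthetase gene (0.944 and 0.652), Rpf1, a ribosome biogenesis gene (0.937 and 0.759), and Nufip1 (0.933 and 0.676).

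Gjb2 was most like 1110032F04Rik (r = 0.935, and 0.664 for the deviations), Ccdc50 (0.933 and 0.713), Hdgfl3 (0.929 and 0.719) and Cd74, the class II invariant chain and 1 of the myeloid markers above (0.928 and 0.818). Cldnd1 was most like Aebp2, a Polycomb accessory gene (0.963 and 0.719), Mlkl, a kinase-like effector of necroptosis (0.962 and 0.615), Nqo1, a quinone reductase and known AhR target (0.958 and 0.808), and Plcg2, a phospholipase (0.955 and 0.508). Emp1 was most like Sgms1, a sphingomyelin synthase (0.962 and 0.714), Lgals3, a galectin (0.961 and 0.807), Matn2, a matrix protein (0.96 and 0.709), and Tgfb3, a cytokine (0.959 and 0.666).

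Among themselves the 4 genes correlated less once group means were removed. Cldnd1 and Emp1 had r = 0.949 over the 12 arrays and 0.391 for the deviations, and Ctnnal1 and Gjb2 had 0.870 and 0.227. Cldnd1 and Gjb2, which moved in opposite directions, had −0.905 and −0.485.

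**Figure D4:**
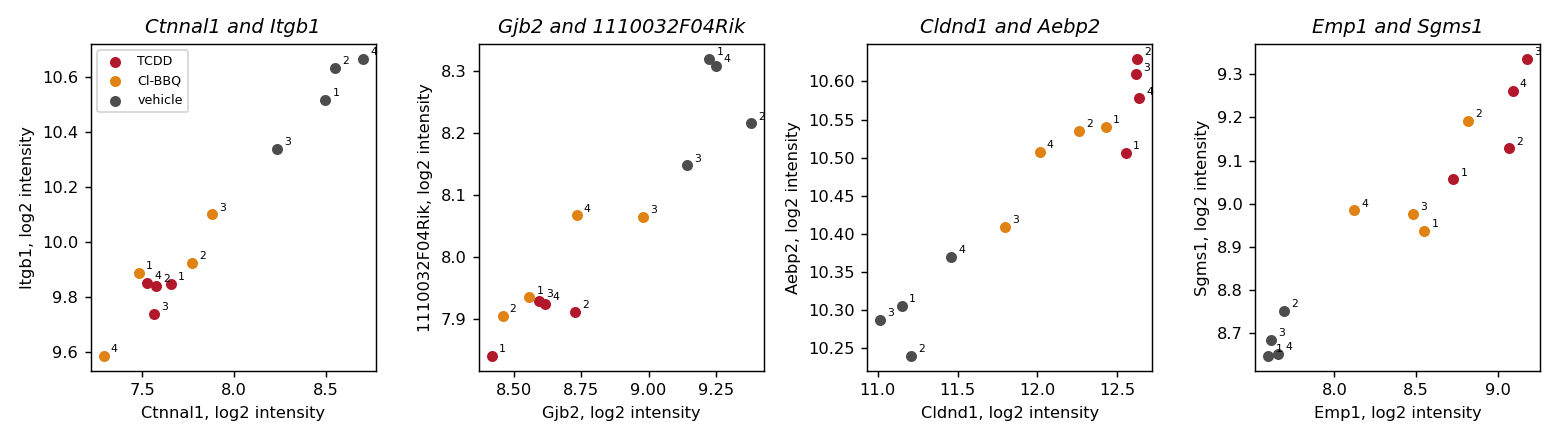
Log2 intensity of Ctnnal1, Gjb2, Cldnd1 and Emp1 (horizontal axes) against the gene of most like pattern (vertical axes) on 12 arrays, coloured by group and labelled with the replicate number; axes differ in range. In the panel of Ctnnal1 and Itgb1 (r = 0.987) the order of arrays within the Cl-BBQ and vehicle groups is the same for both genes.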

How the data were processed

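Whole-genome expression was measured on 12 arrays, 4 per group. The deposited values are log2 intensities made by the authors with RMA, per the submitters' processing notes; the log2 scale was read from the values (2.49 to 14.2). Software version, library file and the arrays that entered RMA were not given in the sources used here. Labels' protocols name a labelling kit for 3′ arrays, while the probe table is of a whole-transcript array. Of 35556 probe sets, 21789 had 1 gene symbol, 1621 several, and 12146 were not listed; Entrez identifiers of 21698 were found in RefSeq (GRCm38.p6), with 0 symbols changed. The probe set with the highest mean was kept for each gene.

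One model over all 3 groups was fitted with limma 3.58.1 (R 4.3.3; lmFit, eBayes with intensity trend, 9 residual degrees of freedom), two-sided, with Benjamini-Hochberg adjustment over 19938 genes and a threshold of 0.05; intervals are at the 95% level. The fit was tested on simulated data. Fold changes are 2 to the power of the log2 difference. No filter was applied, and with 4 arrays per group their number limits precision. The genes and lists were chosen with earlier results of these data known. Beyond the 8 genes, the rule for naming took called list genes, otherwise up to 2 of smallest p, and 4 genes of like pattern; values of Cyp1b1 were added to describe 1 array. Alternatives were 11 settings and 12 fits without 1 array. The deviations of same-numbered TCDD and Cl-BBQ arrays had r of 0.606, 0.113, 0.157 and 0.365, all over the set limit of 0.1. That comparison is therefore given with a replicate block too. Arrays of different number were not compared in this way, and the numbers are not stated to mark a shared day or litter. Figures used matplotlib 3.10.9 (Python 3.11.15).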

Additional observations from a re-analysis of the deposited data

Results flagged for a closer look

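In Gja1 the array of Cl-BBQ replicate 1 read 6.27, and the other 3 Cl-BBQ arrays 5.93 to 5.98. Its gap to the nearest of them was 0.872 of the group's range, above Dixon's 95% critical value for 4 arrays. It was the only 1 of 24 gene and group pairs past that limit, which chance alone passes in about 1 of 20 groups.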

How the results depend on the processing

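With TCDD against vehicle the 4 calls (Cldnd1, Emp1, Ctnnal1 and Gjb2) held in all 23 alternatives, with highest adjusted p of 0.00155, 0.00242, 0.00912 and 0.0193. Between the compounds 1 of the 8 genes, Cldnd1, was called with array weights, and 0 to 1 with an array left out. In the contrast that chose them, 2 (Cldnd1 and Ctnnal1) to 4 of the 8 were past the threshold with an array left out, and 0 with every probe set tested. With an array left out, signs of some uncalled differences turned: between the compounds Emp3 ranged from −0.1728 to 0.0329, Ctnnal1 from −0.1323 to 0.0645 and Gjb2 from −0.1683 to 0.0058, and with TCDD Ctnnb1 ranged from −0.0219 to 0.0298.

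The number of all genes called was less stable; the cause was not tested. With TCDD 247 genes were called, 391 with array weights, 397 with the replicate block, and 150 to 321 with an array left out (150 without TCDD replicate 3). With Cl-BBQ 39 were called, 13 after median centring, 96 after quantile normalization, 0 with every probe set tested, 18 without an intensity trend, 11 from the 2 groups alone, 111 with the replicate block, and 3 to 61 with an array left out: dropping Cl-BBQ replicate 1 gave 61, replicate 2 gave 3 and replicate 4 gave 16, dropping vehicle replicate 1 gave 9 and replicate 4 gave 4, and dropping TCDD replicate 2 gave 16. Between the compounds 3 were called, 0 after quantile normalization, with every probe set tested, without a trend or from the 2 groups alone, 9 with array weights, 5 with the replicate block, and 0 to 7 with an array left out. The block changed no call of the 8 genes. Deviations of same-numbered TCDD and vehicle arrays had r of −0.07, 0.14, 0.04 and 0.182. For Cl-BBQ and vehicle arrays r was −0.134, 0.087, −0.009 and −0.036. In neither comparison were all values over 0.1, and whether the numbers pair these arrays is not known. Of the marker calls, Cd22, Cd86 and Gzma with TCDD held throughout, Bank1 held in 14 of 22 alternatives, Cd74 in 15 of 22, Epcam in 13 of 22, Eomes in 18 of 23, and, with Cl-BBQ, Cd86 in 9 and Gzma in 20 of 23.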
